A study of Homo sapiens with 6 samples.

Results

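Voltage-gated and potassium channel genes were examined in H1155 cells, an established neuroendocrine large cell lung cancer line, by RNA-Seq of 3 libraries labelled WT and 3 labelled GFI1-KO. The members were all protein-coding genes whose symbol begins with KCN, with CACN or with SCN and a digit, which gave 137 of the 58735 genes in the count table: 97 KCN, 26 CACN and 14 SCN genes. The rule used names only and no measured value. Both groups were untreated cells grown in DMEM with 10% FBS. The GFI1-KO cells came from sorted monoclonal clones after CRISPR/Cas9 cutting with pairs of guides against the promoter region of GFI1, a zinc finger transcriptional repressor, and how many clones the 3 libraries represent is not given in the sources used here. A difference between the groups therefore cannot be told apart from a difference between clones.

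Voltage-gated sodium and calcium channels open when the membrane depolarizes and let cations enter, which gives the upstroke of an action potential and couples it to secretion. Potassium channels let potassium leave and bring the membrane back to rest. Each channel is built of a pore-forming subunit, which sets its voltage range and kinetics, and of auxiliary subunits, which set its gating and how much of it reaches the surface. Neuroendocrine cells of the lung and the tumors related to them are known to carry many of these channels and to be electrically excitable.

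The libraries held 14882914 to 17692882 counts, of which 0.140% to 0.153% fell on channel genes. GFI1 itself was no lower in GFI1-KO than in WT libraries, with 157, 117 and 131 normalized counts in WT and 166, 178 and 160 in GFI1-KO (log2 fold change 0.31 ± 0.12, SE, edgeR adjusted p = 0.0273, which became 0.147 without WT replicate 2, 0.127 with DESeq2, and 0.224 with the GC and length offsets described below, at a log2 fold change of 0.18). The counts of the targeted gene therefore do not check the labels, no protein was measured in these files, and every direction below rests on the labels. Of 9 neuroendocrine markers 6 rose and 3 fell, and their summed normalized counts were 32940 to 33560 in WT and 40440 to 41190 in GFI1-KO. Sums were 3385 to 3568 in WT and 3988 to 4375 in GFI1-KO for 5 epithelial markers, 3143 to 3230 and 2238 to 2313 for 8 fibroblast markers, 445 to 502 and 222 to 248 for 4 endothelial markers, and 2.10 to 6.64 and 4.76 to 11.3 for 5 leukocyte markers. The epithelial sum was carried by KRT8 and KRT18, while CDH1 fell from 26.98 ± 8.11 to 5.39 ± 4.30 and EPCAM from 66.9 ± 13.3 to 14.2 ± 5.91. DCN and CD3E had no count in any library, while COL3A1 rose from 2.49 to 140 and PECAM1 fell from 455 to 209. The part of these differences in the channel results was not tested. In bulk RNA, fewer cells of a kind and less RNA per cell cannot be told apart.

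Of the 137 channel genes, 11 had no count in any library, 37 were counted but fell below the filter on low counts, and 89 could be tested. A normalized count is a count scaled to a common library size, and a gene was called at an adjusted p of at most 0.05 by edgeR's quasi-likelihood test over all genes. By this rule 28 of the 89 were higher in GFI1-KO and 34 lower, against a background of 36.5% of all tested genes higher and 35.9% lower. At a size of 1 or more on the log2 scale as well, 11 (12.4%) were higher and 18 (20.2%) lower. The backgrounds at that size were 10.2% and 7.29%. The 2 groups did not overlap for 67 of the 89 genes, a share of 75.3% beside 74.4% of all genes tested. The median log2 fold change was 0.04 over the channel genes and 0.00 over all genes. Without a fold minimum, the shares of channel genes called, 31.5% and 38.2%, lay near the background. The share lower by 1 or more, 20.2%, lay above its background of 7.29%, a difference that was not tested. What follows is about which members moved. The KCN family had 16 genes higher and 23 lower of 60 tested, the CACN family 9 and 7 of 20, and the SCN family 3 and 4 of 9.

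**Figure D1:**
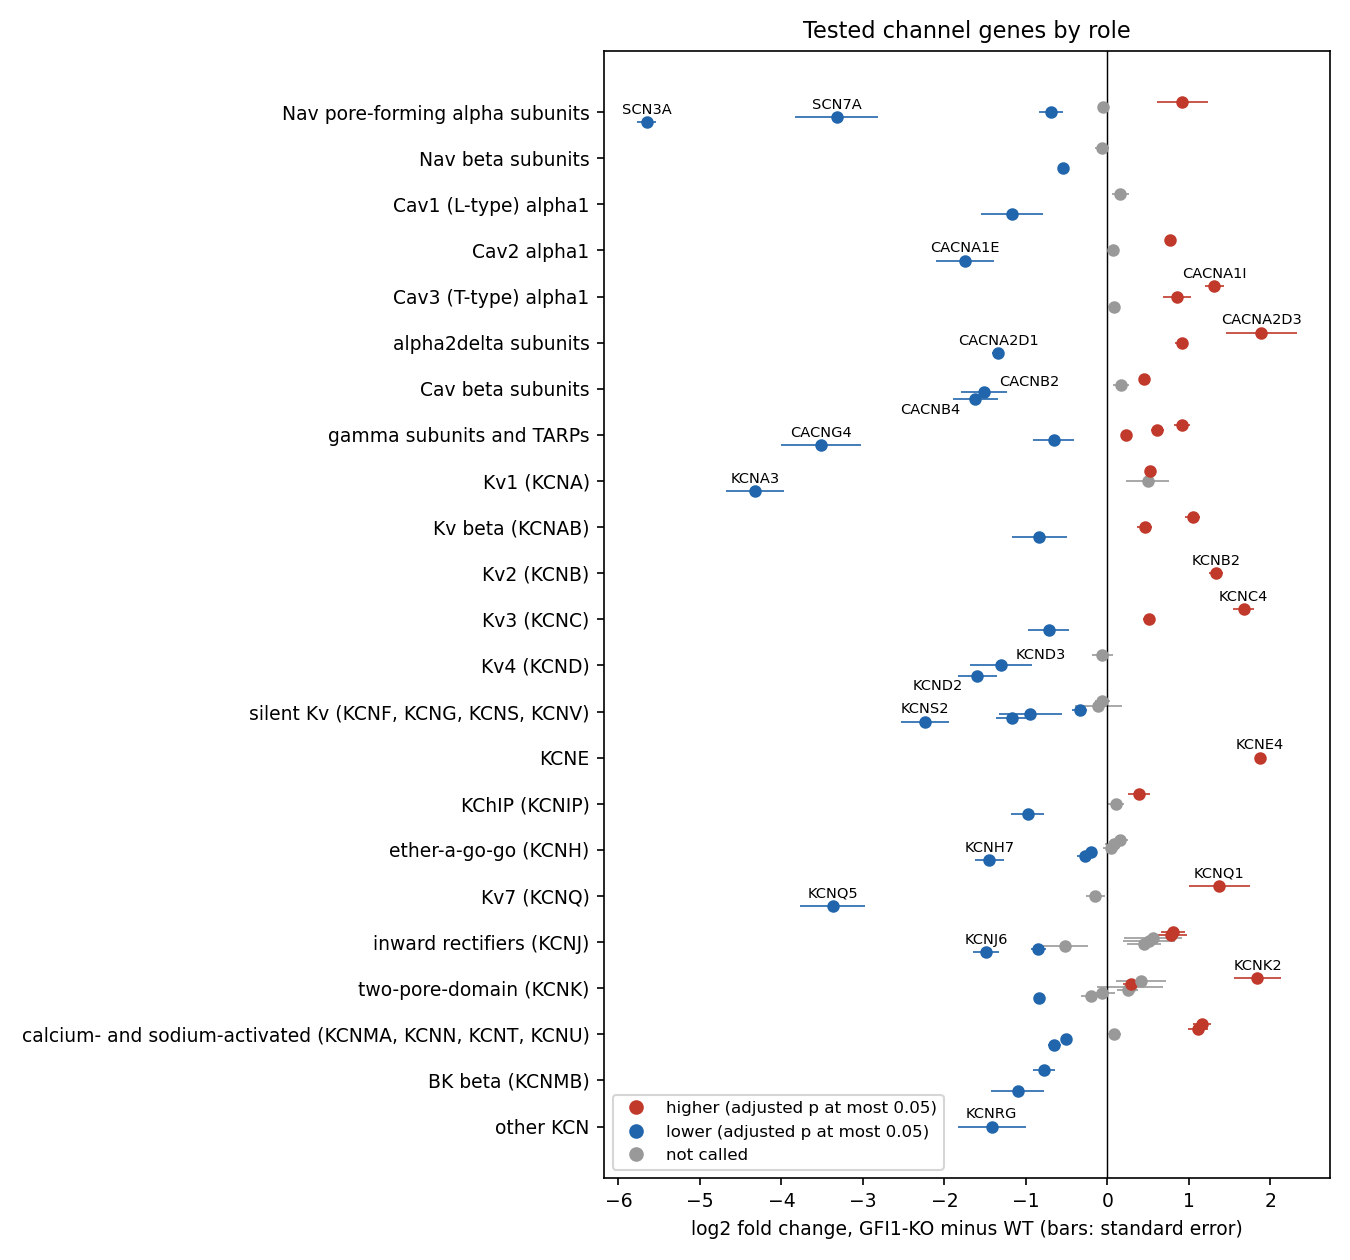
Log2 fold change of 83 of the 89 tested channel genes (horizontal axis, GFI1-KO minus WT) by role (vertical axis), with bars for the standard error, red for genes called higher, blue for genes called lower and grey for genes not called. SCN3A at -5.65 lies farthest to the left, and KCNA3, CACNG4, KCNQ5 and SCN7A follow at -4.33 to -3.32, while no gene shown lies above 1.89.

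The base composition of the transcripts moved with these changes. The median GC content of the longest transcript was 57.1% for channel genes called higher, 44.4% for those called lower and 58.1% for those not called, beside 48.2% for all tested genes. Across genes, which are not independent replicates, the log2 fold change followed GC content with a Spearman rho of 0.466 over the 89 channel genes and 0.574 over 17415 genes. With offsets for GC content and length fitted to each library, 19 channel genes (21.35%) were higher and 40 (44.94%) lower. The backgrounds were 32.5% and 28.2%, and rho over the channel genes was 0.118. Of the 28 higher genes 17 were still higher, 10 were not called and 1, CACNG7, was called lower. Of the 34 lower genes 26 were still lower and 8 were not called. Among genes that changed by 1 or more on the log2 scale, 10 of the 11 higher and 17 of the 18 lower kept their call. The part of base composition in the differences was not tested, and the result with offsets is given beside each call of a named gene that they end or turn.

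**Figure D2:**
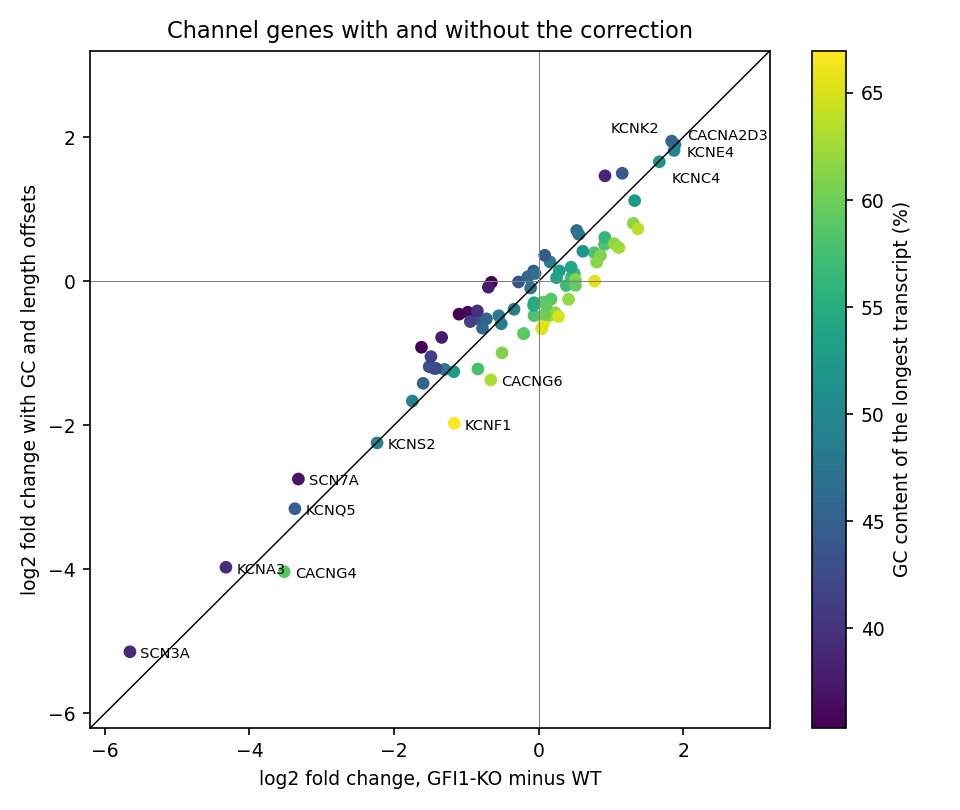
Log2 fold change with GC and length offsets (vertical axis) against that without them (horizontal axis) for 83 of the 89 tested channel genes, coloured by the GC content of the longest transcript, with the line of equal values. GC-rich genes lie below the line and GC-poor genes above it, and SCN3A (-5.65 and -5.14), KCNA3 and KCNE4 (1.87 and 1.82) lie near it.

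Among the pore-forming sodium channel subunits, SCN3A fell to a small fraction of its WT level while SCN8A was not called, and SCN8A took the place of SCN3A as the leading transcript per length. SCN3A encodes Nav1.3, a channel best known from the developing nervous system, and lies on the minus strand at chr2:165087522-165204067 (hg38, ENSG00000153253). Its normalized counts were 836, 832 and 875 in WT and 14.3, 18.9 and 16.9 in GFI1-KO. Every GFI1-KO library lay far below every WT library, with a log2 fold change of -5.65 ± 0.12 (SE, n = 3 and 3, edgeR adjusted p = 1.01e-23), a level 50.7-fold higher in WT. SCN8A encodes Nav1.6, the main sodium channel of mature neurons, and had 874, 855 and 885 normalized counts in WT and 861, 841 and 825 in GFI1-KO. These groups overlapped, and SCN8A was not called (log2 fold change -0.05 ± 0.05, adjusted p = 0.414).

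Other sodium channel pores were far less abundant. SCN7A, which encodes an atypical channel involved in sodium sensing, had 21.5, 15.5 and 23.1 normalized counts in WT and 1.91, 2.84 and 0.941 in GFI1-KO (log2 fold change -3.32 ± 0.51, adjusted p = 1.96e-06). SCN2A, which encodes the neuronal Nav1.2, fell from 132 ± 8.08 to 81.4 ± 11.8 (SD, n = 3), but with GC and length offsets its log2 fold change went from -0.70 to -0.08 (adjusted p = 0.647). SCN9A, the Nav1.7 of sensory and neuroendocrine cells, rose from 14.4 ± 1.70 to 27.5 ± 1.83 (log2 fold change 0.92 ± 0.31, adjusted p = 0.00997), and was not called by DESeq2 (adjusted p = 0.0747). About 11.4% of its exon bases lie over a gene on the opposite strand, whose reads cannot be separated where strand was not used. SCN1A, SCN4A and SCN11A had at most 9 counts in any library, and SCN10A had none.

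Per length, in FPKM computed from the counts, the 10 sodium channel pores summed to 9.71, 9.38 and 9.99 in WT and 4.29, 4.37 and 4.42 in GFI1-KO. The ratio was 0.450, with no overlap (exact permutation test, two-sided p = 0.1, the smallest that 3 against 3 allows). SCN3A made up 54.0% ± 0.830 of the WT sum and 2.34% ± 0.309 of the GFI1-KO sum. The share of SCN8A went from 36.5% ± 0.516 to 77.7% ± 2.73 with mean levels of 3.54 and 3.38 FPKM.

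**Figure D3:**
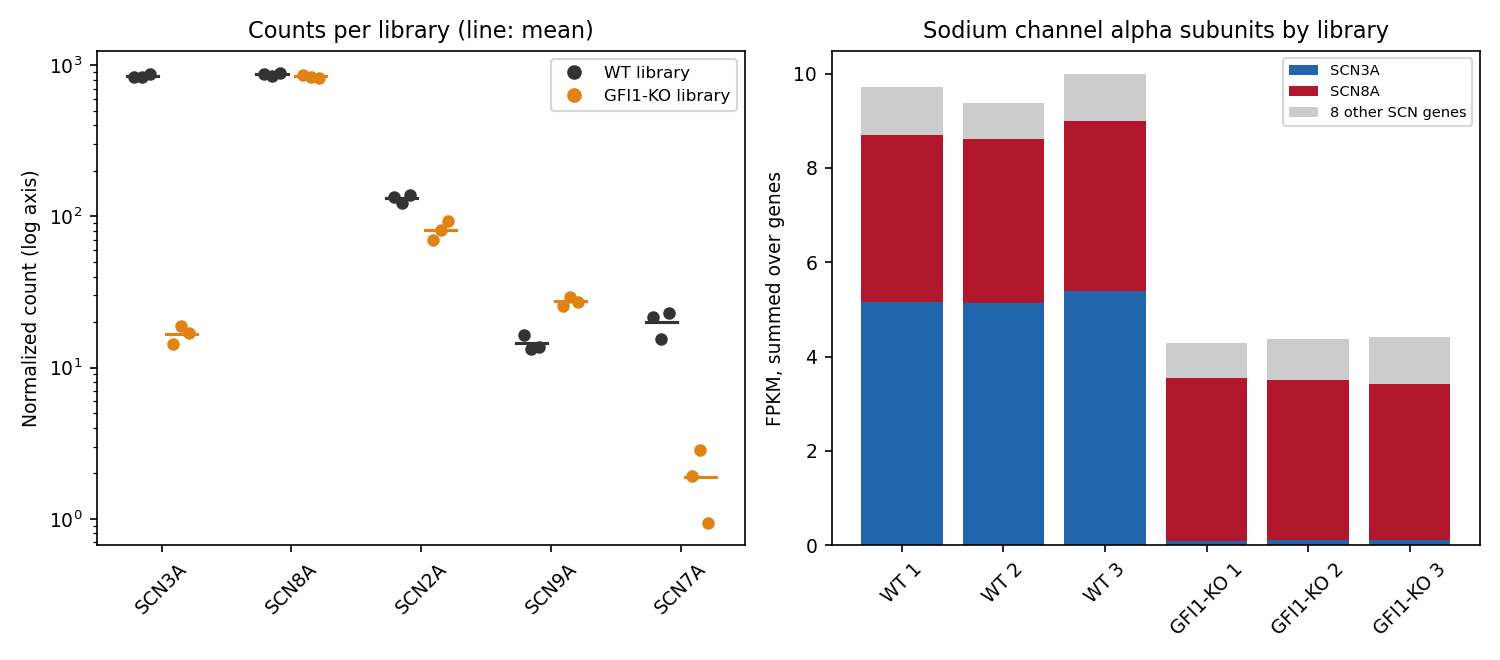
Left, normalized counts (log axis) of 5 sodium channel pore genes in each WT and GFI1-KO library, with a line at the mean. Right, the FPKM of SCN3A, of SCN8A and of the other 8 pores together, stacked by library, where the sum falls from 9.38 to 9.99 in WT to 4.29 to 4.42 in GFI1-KO with the loss of the SCN3A layer, while the SCN8A layer averages 3.54 and 3.38.

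The sodium channel beta subunits are single-pass proteins that bind the pore and act in cell adhesion. SCN3B fell from 1324 ± 4.42 to 904 ± 40.0 normalized counts (log2 fold change -0.55 ± 0.05, adjusted p = 1.29e-10). SCN4B was not called (-0.07 ± 0.09, adjusted p = 0.493) but was lower with the GC and length offsets (adjusted p = 0.00170), and SCN2B had 1 count in all. SCN3B made up 49.2% ± 1.66 of the beta sum of FPKM in WT and 35.3% ± 1.33 in GFI1-KO.

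SCN3A sits in a cluster of sodium channel genes on chromosome 2. Measured between gene starts, SCN2A lies 9.07 kb away and is read in the opposite direction, SCN9A lies 1172 kb away and SCN7A 1290 kb away. Of the 4 tested cluster genes 3 fell and SCN9A rose, beside 35.9% of all tested genes lower and 36.5% higher. Whether the region moved together was not tested. The 6 other protein-coding genes tested within 1500 kb of the SCN3A start had log2 fold changes from -1.69 to 0.51, with 1 higher and 5 lower. The decrease next in size to that of SCN3A within this span was that of SCN7A. Of the exon bases of SCN3A, 8.43% lie over a gene on the opposite strand, ENSG00000236283.

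Of 8 tested calcium channel pores 3 rose and 2 fell, beside 36.5% of all tested genes higher and 35.9% lower. Those that rose were N-type or T-type, and those that fell an L-type and an R-type gene with low counts. This split by type did not hold with the GC and length offsets, as given below. CACNA1B encodes the N-type channel Cav2.2, which triggers transmitter release, and had 445, 496 and 486 normalized counts in WT and 820, 832 and 784 in GFI1-KO. The groups were well apart (log2 fold change 0.77 ± 0.06, adjusted p = 1.76e-11). CACNA1I, which encodes the T-type Cav3.3, had 116, 140 and 92.4 normalized counts in WT and 290, 295 and 276 in GFI1-KO. All GFI1-KO libraries were above all WT libraries (1.31 ± 0.12, adjusted p = 1.48e-10). A further T-type gene, CACNA1G, rose from 55.3 ± 8.93 to 100.4 ± 4.999 (0.86 ± 0.17, adjusted p = 8.00e-05), a call lost with the GC and length offsets (0.36, adjusted p = 0.0766). CACNA1E, the R-type Cav2.3, fell from 27.8 ± 3.99 to 8.21 ± 1.99 (-1.75 ± 0.35, adjusted p = 7.79e-05). The L-type CACNA1C, the main calcium channel of heart and smooth muscle, fell from 20.05 ± 2.996 to 8.85 ± 3.86 (-1.17 ± 0.38, adjusted p = 0.00825), a call that was lost without GFI1-KO replicate 2 (adjusted p = 0.0629).

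The 3 other tested pores were not called. The P/Q-type CACNA1A stood at 993 ± 33.7 and 1039 ± 35.1 normalized counts, the T-type CACNA1H at 526 ± 21.2 and 554 ± 34.7, and the L-type CACNA1D, common in endocrine cells, at 238 ± 14.2 and 266 ± 40.5. With GC and length offsets CACNA1A (-0.29) and CACNA1H (-0.58) were called lower and CACNA1D (0.27) higher. The 10 calcium channel pores summed to 9.99, 9.95 and 9.75 FPKM in WT and 13.5, 13.1 and 13.3 in GFI1-KO, a ratio of 1.34 (exact permutation test, two-sided p = 0.1). CACNA1B contributed 29.5% ± 1.87 of that sum in WT and 37.0% ± 1.36 in GFI1-KO, and CACNA1I 6.58% ± 1.28 and 12% ± 0.480. The sum has no correction for GC content, and with the offsets CACNA1B and CACNA1I rose by less (0.40 and 0.80). Whether the sum would still be higher in GFI1-KO with the offsets was not tested.

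The alpha2delta subunits, extracellular proteins that carry calcium channels to the surface and bind gabapentin, exchanged their leading gene. CACNA2D1 (ENSG00000153956, chr7:81946444-82443798, minus strand) had 706, 619 and 683 normalized counts in WT and 254, 259 and 280 in GFI1-KO, without overlap (log2 fold change -1.34 ± 0.08, adjusted p = 1.04e-14). CACNA2D2 had 254, 258 and 219 in WT and 436, 472 and 467 in GFI1-KO, again without overlap (0.91 ± 0.08, adjusted p = 1.67e-10). CACNA2D3 rose from 4.996 ± 2.56 to 18.6 ± 1.49. The FPKM share of CACNA2D1 went from 65.1% ± 2.87 to 27.7% ± 0.864 and that of CACNA2D2 from 33.8% ± 2.94 to 68.4% ± 1.15. The sum of the group was 6.92 ± 0.261 FPKM in WT and 6.36 ± 0.228 in GFI1-KO. These calls held with GC and length offsets, where CACNA2D1 was at -0.78 and CACNA2D2 at 0.51.

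Among the calcium channel beta subunits, which sit inside the cell and help fold the pore, CACNB3, the highest in FPKM, had 938 to 1124 normalized counts in WT and 1353 to 1428 in GFI1-KO (log2 fold change 0.45 ± 0.06, adjusted p = 4.96e-08), but its sign turned with GC and length offsets (-0.02, adjusted p = 0.727). The scarce CACNB4 fell from 48.8 ± 5.94 to 15.8 ± 5.12 (-1.62 ± 0.28, adjusted p = 1.05e-05), less so with the offsets (-0.92), and CACNB2 from 39.9 ± 2.17 to 13.9 ± 0.624 (-1.51 ± 0.28, adjusted p = 3.09e-05), with 11.9% of its exon bases over an opposite-strand gene. CACNB1 was not called (0.17 ± 0.10, adjusted p = 0.117) and was lower with the offsets (-0.25).

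The gamma family includes the TARPs, proteins that attach to AMPA receptors rather than to calcium channels. CACNG7, the member with the highest FPKM, stood at 827 ± 92.7 and 967.5 ± 20.01 normalized counts, higher without the GC and length offsets (log2 fold change 0.23 ± 0.06, adjusted p = 0.00228) and lower with them (-0.44, adjusted p = 3.8e-07), so its direction is not settled here. CACNG2, known as stargazin, rose from 235 ± 7.02 to 359 ± 15.9 (0.61 ± 0.08, adjusted p = 3.03e-07), although 31.6% of its exon bases are shared with another gene on the same strand. CACNG8 rose from 168 ± 11.5 to 317 ± 10.7 (0.92 ± 0.09, adjusted p = 1.93e-09). CACNG4 had 38.9, 35.4 and 27.3 in WT and 0, 6.63 and 1.88 in GFI1-KO (-3.52 ± 0.49, adjusted p = 4.42e-07), and its log2 fold change was -4.98 without GFI1-KO replicate 2. CACNG6, CACNG7 and CACNG8 are neighbours on chromosome 19. CACNG6 went the other way from CACNG8, at 45.4 ± 6.997 and 28.7 ± 5.32 (log2 fold change -0.66, and -1.37 with the offsets), although its call was lost without GFI1-KO replicate 2 (adjusted p = 0.0975).

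In the Kv1 family of delayed rectifiers, which set the threshold for firing, KCNA3 was lost and KCNA2 rose. KCNA3 encodes Kv1.3, the potassium channel known from T lymphocytes (ENSG00000177272, chr1:110672465-110675033, minus strand). It had 77.8, 70.8 and 67.2 normalized counts in WT and 2.86, 6.63 and 0.941 in GFI1-KO. The groups were far apart (log2 fold change -4.33 ± 0.36, adjusted p = 3.47e-11, and -5.15 without GFI1-KO replicate 2), and the leukocyte marker PTPRC had 3 counts in 1 WT library and 0 in the other 5. KCNA2, which encodes the axonal Kv1.2, had 1013 to 1103 normalized counts in WT and 1488 to 1581 in GFI1-KO (0.53 ± 0.05, adjusted p = 1.48e-10). Since KCNA2 rose as KCNA3 fell, the Kv1 sum was 5.89 ± 0.173 FPKM in WT and 5.86 ± 0.165 in GFI1-KO (exact permutation test, two-sided p = 0.8). The share of KCNA3 in it was 28.9% ± 2.40 in WT and 1.38% ± 1.16 in GFI1-KO. KCNA4, below the filter, had 8, 10 and 6 counts in WT and 0 in each GFI1-KO library, and KCNA7 was not called (0.50 ± 0.27, adjusted p = 0.096).

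KCNA2, KCNA3 and KCNC4 lie within 464 kb of each other on chromosome 1 and moved in different directions, so the 250 bases before the RefSeq start of each are shown (GRCh38.p14, in the direction of transcription, 5′ to 3′). Capitals mark AATC or its reverse complement GATT, the core of the sequence that GFI1 is known to bind, searched on both strands. The windows are chr1:110210064-110210313 on the plus strand for KCNC4, and chr1:110631441-110631690 and chr1:110674941-110675190 on the minus strand for KCNA2 and KCNA3, each for the most upstream RefSeq start given for the gene.
KCNC4: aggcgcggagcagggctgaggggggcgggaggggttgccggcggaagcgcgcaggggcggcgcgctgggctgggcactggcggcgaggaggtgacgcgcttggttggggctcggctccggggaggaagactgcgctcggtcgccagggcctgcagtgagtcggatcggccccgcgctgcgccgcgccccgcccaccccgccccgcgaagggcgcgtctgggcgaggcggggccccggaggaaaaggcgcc
KCNA2: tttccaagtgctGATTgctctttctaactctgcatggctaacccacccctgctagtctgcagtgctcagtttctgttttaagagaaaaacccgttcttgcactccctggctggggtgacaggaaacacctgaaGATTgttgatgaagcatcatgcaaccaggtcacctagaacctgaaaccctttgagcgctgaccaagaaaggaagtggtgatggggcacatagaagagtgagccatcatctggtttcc
KCNA3: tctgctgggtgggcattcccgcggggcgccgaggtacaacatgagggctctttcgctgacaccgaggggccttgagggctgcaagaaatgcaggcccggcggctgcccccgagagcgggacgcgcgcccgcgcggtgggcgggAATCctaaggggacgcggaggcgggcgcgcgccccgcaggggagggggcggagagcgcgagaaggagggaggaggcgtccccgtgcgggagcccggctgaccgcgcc
The KCNC4 window held no match, that of KCNA2 held 2 and that of KCNA3 held 1. The windows of KCNC4 and KCNA3 were rich in GC (79.2% and 75.2%) and held 36 and 33 CpG dinucleotides, while that of KCNA2 had 48.8% GC and 2 CpG. RefSeq windows were found for 98 of the 137 members. A core this short is common, with a match in 64.8% of all RefSeq windows. The share was 55.6% of the 27 windows of 15 genes called higher and 68.6% of the 51 windows of 26 genes called lower. It was 38.1% of the 21 windows of 19 genes not called and 68.6% of the 51 windows of 38 genes not tested. These matches are letters in a window and not sites of binding.

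KCNC4 lies 464 kb and KCNA2 43.6 kb from the start of KCNA3. Of 33 other tested genes within 1500 kb of that start, 14 were higher and 12 lower, beside 36.5% and 35.9% of all tested genes. Their log2 fold changes ran from -0.73 to 2.66.

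The Kv3 family lets cells fire fast. KCNC4 (ENSG00000116396) had 72.7, 93.0 and 60.9 normalized counts in WT and 244, 235 and 241 in GFI1-KO (log2 fold change 1.67 ± 0.13, adjusted p = 1.17e-11). The groups did not overlap, and KCNC4 was still higher with GC and length offsets (1.66). KCNC1 rose from 449 ± 47.1 to 640 ± 41.7 (0.51 ± 0.07, adjusted p = 7.94e-07), a call lost with the offsets (0.02, adjusted p = 0.820). KCNC2 was at 50.01 ± 14.9 in WT and 30.3 ± 5.08 in GFI1-KO, a decrease whose call was lost without WT replicate 3 (adjusted p = 0.141) and with the offsets (-0.52, adjusted p = 0.0784), and 35.7% of its exon bases lie over an opposite-strand gene.

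KCNB2 encodes a Kv2 channel, a slow delayed rectifier of neurons and endocrine cells, and had 210, 176 and 186 normalized counts in WT and 484, 481 and 473 in GFI1-KO (log2 fold change 1.33 ± 0.08, adjusted p = 1.31e-13). Every GFI1-KO library lay above every WT library.

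The Kv4 family carries the fast A-type current. It had 2 genes lower and none higher of 3 tested, beside 35.9% of all tested genes lower and 36.5% higher. KCND2 fell from 73.0 ± 10.5 to 24.0 ± 6.86 normalized counts (log2 fold change -1.60 ± 0.24, adjusted p = 1.27e-06), and KCND3 from 24.3 ± 5.60 to 9.77 ± 5.48 (-1.30 ± 0.38, adjusted p = 0.00349). KCND1, with the highest FPKM of the 3, was not called (-0.06 ± 0.13, adjusted p = 0.678) but was lower with the GC and length offsets (-0.48). Of the KChIP proteins, which bind Kv4 channels and bring them to the surface, KCNIP4 fell from 77.8 ± 14.7 to 39.4 ± 5.46 (-0.98 ± 0.20, adjusted p = 0.000125), but not with the offsets (-0.43, adjusted p = 0.0707), and 46.3% of its exon bases lie over an opposite-strand gene. KCNIP2 rose (0.38 ± 0.13, adjusted p = 0.0123), a call lost without GFI1-KO replicate 2 (adjusted p = 0.0619), without WT replicate 3 and with the offsets, where the sign turned (-0.06), and 13.1% of its exon bases lie over an opposite-strand gene. KCNIP3 was not called (0.11 ± 0.10, adjusted p = 0.34) and was lower with the offsets (-0.34).

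DPP10 and DPP6, transmembrane proteins that join Kv4 channels and speed their gating, belong to the listed partners and fell as well. DPP10 had 231, 235 and 241 normalized counts in WT and 2.86, 3.79 and 2.82 in GFI1-KO (log2 fold change -6.17 ± 0.23, adjusted p = 1.99e-18), and DPP6 fell from 34.9 ± 3.50 to 6.31 ± 2.89 (-2.44 ± 0.36, adjusted p = 1.18e-06). DPP6 was named after its values were seen.

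The silent Kv subunits do not form channels alone but join Kv2 subunits and change their gating, and 4 of 6 tested fell while none rose, beside 35.9% of all tested genes lower. DESeq2 called 3 of 8 lower, beside 23.8% of all genes that it tested. KCNS2 had 52.2, 91.9 and 63.0 normalized counts in WT and 8.58, 20.9 and 14.1 in GFI1-KO (log2 fold change -2.23 ± 0.30, adjusted p = 1.73e-07). KCNF1 fell from 115 ± 17.99 to 51.5 ± 17.1 (-1.17 ± 0.20, adjusted p = 7.38e-06), and more so with the GC and length offsets (-1.97). KCNS3 fell from 305 ± 20.6 to 241 ± 17.4 (-0.34 ± 0.09, adjusted p = 0.00157). KCNV1 was at 18.4 ± 4.16 and 9.48 ± 3.47, and its call was lost without GFI1-KO replicate 2 (adjusted p = 0.129) and with the offsets (adjusted p = 0.213). KCNG1 was not called (-0.06 ± 0.09, adjusted p = 0.541), although it was lower with the offsets (-0.30), nor was KCNG3 (-0.11 ± 0.29, adjusted p = 0.741).

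KCNE4 showed the largest increase among the channel genes with at least 50 normalized counts on average. It encodes a single-pass subunit that is known to inhibit Kv1 and Kv7 channels (ENSG00000152049, chr2:223051814-223198399, plus strand). Its normalized counts were 432, 445 and 426 in WT and 1552, 1572 and 1651 in GFI1-KO, a 3.66-fold difference without overlap (log2 fold change 1.87 ± 0.05, adjusted p = 1.26e-20). It was as high with GC and length offsets (1.82). The other KCNE genes had at most 6 counts in any library. The cytoplasmic Kv beta subunits, which bind Kv1 channels, rose in KCNAB2 (265 ± 51.0 to 549 ± 19.9, 1.05 ± 0.09, adjusted p = 1.34e-10) and KCNAB3 (0.46 ± 0.10, adjusted p = 0.000129), the latter not with the offsets (0.06, adjusted p = 0.614). KCNAB1 was at 29.8 ± 7.92 and 16.7 ± 7.27, a decrease whose call was lost without GFI1-KO replicate 1 (adjusted p = 0.174) and with the offsets (adjusted p = 0.188).

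The Kv7 genes carry the M-current, which holds back repeated firing. KCNQ5 had 33.8, 39.9 and 37.8 normalized counts in WT and 5.72, 1.90 and 2.82 in GFI1-KO (log2 fold change -3.37 ± 0.40, adjusted p = 2.93e-08). KCNQ1, known from heart and epithelia, rose from 8.77 ± 4.13 to 23.0 ± 4.23 (1.37 ± 0.38, adjusted p = 0.00216), a call lost with GC and length offsets (0.73, adjusted p = 0.103). KCNQ3 was not called (-0.15 ± 0.12, adjusted p = 0.268). The Kv7 sum was 4.79 ± 0.306 FPKM in WT and 4.58 ± 0.281 in GFI1-KO (exact permutation test, two-sided p = 0.5).

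The ether-a-go-go family included the channel gene with the highest level per length in WT, KCNH2, which encodes hERG, at 19.2 ± 1.61 FPKM in WT and 16.5 ± 0.591 in GFI1-KO. It fell slightly (log2 fold change -0.21 ± 0.05, adjusted p = 0.000551), and more so with the GC and length offsets (-0.73). KCNH7, a close relative of KCNH2, had 108, 131 and 138 normalized counts in WT and 54.3, 43.6 and 39.5 in GFI1-KO (-1.45 ± 0.18, adjusted p = 3.87e-08). KCNH8 was at 366 ± 27.2 and 302 ± 40.7 with overlapping groups, and its call (adjusted p = 0.00849) was lost without GFI1-KO replicate 2 (adjusted p = 0.0757) and with the GC and length offsets (-0.01, adjusted p = 0.932). KCNH3, KCNH4 and KCNH6 were not called, at 0.04, 0.15 and 0.08, and were called lower with the offsets, at -0.659, -0.475 and -0.462.

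Inward rectifiers keep the membrane near rest. Both of their G protein-gated genes that could be tested fell, beside 35.9% of all tested genes lower. KCNJ3, which encodes GIRK1, had 325, 317 and 345 normalized counts in WT and 185, 180 and 184 in GFI1-KO (log2 fold change -0.85 ± 0.09, adjusted p = 3.65e-09). KCNJ6, which encodes GIRK2, had 167, 131 and 138 in WT and 55.3, 49.3 and 50.8 in GFI1-KO (-1.49 ± 0.16, adjusted p = 3.52e-09). Neither overlapped between groups, and both calls held with GC and length offsets (-0.41 and -1.05). The other GIRK genes, KCNJ5 and KCNJ9, had at most 4 counts in any library. KCNJ12 rose from 66.6 ± 4.86 to 117 ± 6.10 (0.80 ± 0.15, adjusted p = 3.76e-05) and KCNJ4 from 41.9 ± 3.86 to 72.0 ± 9.52 (0.78 ± 0.20, adjusted p = 0.00103). Neither was called with the offsets (0.27 and 0.00), and 17.4% of the 50-base words of KCNJ12 also occur elsewhere in annotated transcripts, as do 10.5% of those of KCNJ4, which has 12.6% of its exon bases over an opposite-strand gene. The remaining 4 tested genes, KCNJ8, KCNJ10, KCNJ11 and KCNJ14, were not called.

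The K2P genes encode leak channels, which are open at rest. KCNK3 encodes the acid-sensitive TASK-1 and had 839, 870 and 849 normalized counts in WT and 484, 447 and 498 in GFI1-KO (log2 fold change -0.84 ± 0.06, adjusted p = 2.11e-12). KCNK2 encodes TREK-1, which responds to stretch, and had 18.4, 12.2 and 10.5 in WT and 60.03, 49.3 and 39.5 in GFI1-KO (1.84 ± 0.29, adjusted p = 3.16e-06). The groups did not overlap for either gene. KCNK12 rose from 194 ± 17.1 to 237 ± 8.43, and its call (adjusted p = 0.0116) was lost without WT replicate 3 (adjusted p = 0.0583) and with GC and length offsets (adjusted p = 0.206). The other 5 tested genes were not called. KCNK3 took 49.0% ± 0.881 of the K2P sum in WT and 32.2% ± 1.33 in GFI1-KO, in FPKM.

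Of the 3 tested calcium-activated genes 2 rose, and both sodium-activated genes fell, beside 36.5% of all tested genes higher and 35.9% lower. KCNMA1 encodes the BK channel, which repolarizes cells after calcium entry, and had 106, 124 and 133 normalized counts in WT and 268, 254.9 and 288 in GFI1-KO (log2 fold change 1.16 ± 0.11, adjusted p = 4.27e-10). KCNN1, the small-conductance SK1, had 97.3, 101 and 89.2 in WT and 205, 209 and 206 in GFI1-KO (1.11 ± 0.12, adjusted p = 3.84e-09), and was still higher with GC and length offsets but by less (0.47). KCNN3 was not called (0.09 ± 0.08, adjusted p = 0.322), although it was with the offsets (0.36, adjusted p = 0.000177). The sodium-activated KCNT1 fell from 656 ± 37.1 to 462 ± 24.8 (-0.51 ± 0.07, adjusted p = 1.62e-07) and KCNT2 from 436 ± 30.6 to 278 ± 6.96 (-0.65 ± 0.08, adjusted p = 3.95e-08), the latter not with the offsets (-0.02, adjusted p = 0.877).

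The BK beta subunits fell while the BK pore rose. KCNMB4, the neuronal BK beta gene, had 128, 158 and 149 normalized counts in WT and 82.9, 80.5 and 90.3 in GFI1-KO (log2 fold change -0.78 ± 0.14, adjusted p = 1.82e-05). KCNMB3 fell from 27.9 ± 5.54 to 12.95 ± 2.81 (-1.10 ± 0.33, adjusted p = 0.00386), but was not called with GC and length offsets (-0.46, adjusted p = 0.230), and 50.2% of its 50-base words are shared with other transcripts. KCNMB2, below the filter, had 8, 8 and 16 counts in WT and 2, 0 and 1 in GFI1-KO, and shares 30.1% of its 50-base words. KCNRG, a regulator of Kv1 assembly, fell from 16.3 ± 2.21 to 6.01 ± 1.99 (-1.42 ± 0.42, adjusted p = 0.00376), with 66.8% of its exon bases shared with another gene on the same strand.

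The sum of FPKM over the Kv pores of the KCNA, KCNB, KCNC and KCND genes was 18.5, 19.4 and 18.5 in WT and 27.5, 27.7 and 27.8 in GFI1-KO, a ratio of 1.47 (exact permutation test, two-sided p = 0.1). Pores of sodium channels thus summed lower, and those of calcium channels and of these Kv channels higher, in every GFI1-KO library than in every WT library, on a scale with no correction for GC content. Whether these sums would differ in the same way with GC and length offsets was not tested.

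Other genes of excitability were taken from a list of 45 pumps, pacemaker and leak channels, anchors and channel partners, of which 44 were in the table and 33 could be tested. Of these, 10 rose and 14 fell (30.3% and 42.4%), near the 36.5% and 35.9% of all tested genes, and the median log2 fold change was -0.06. HCN4, a pacemaker channel, had 175, 185 and 222 normalized counts in WT and 43.8, 44.5 and 60.2 in GFI1-KO (-1.97 ± 0.16, adjusted p = 1.17e-11). ANK3, the ankyrin that holds sodium channels at the axon initial segment, fell from 452 ± 37.2 to 229 ± 23.4 (-0.98 ± 0.09, adjusted p = 1.66e-10). Its partner SPTBN4, a spectrin, rose from 565 ± 38.2 to 850 ± 19.96 (0.59 ± 0.06, adjusted p = 2.10e-09), a call lost with GC and length offsets (-0.05, adjusted p = 0.503). The sodium pump gene ATP1B2 rose as well (1.08 ± 0.14, adjusted p = 6.80e-08). REST, a repressor of neuronal genes, rose from 186 ± 25.3 to 269 ± 8.26 (0.53 ± 0.10, adjusted p = 4.68e-05).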

How the data were processed

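RNA-Seq counts of 3 WT and 3 GFI1-KO libraries of H1155 cells were analysed. The authors deposited counts per gene and library, without normalization, on hg38, with the length, start and end of each gene in bases. The submitters' processing notes name Bowtie2 and HTSeq, whereas the methods of the study name Hisat2 and featureCounts. The gene annotation, the strand setting and the treatment of reads with several matches are not given in the sources used here. Nothing in the labels says that replicates came from separate cultures, so p-values measure the spread between these libraries, which may be technical.

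Genes were tested with edgeR 4.0.16 in R 4.3.3 on all 6 libraries (TMM factors, filterByExpr, quasi-likelihood F test, Benjamini-Hochberg adjustment over 17514 genes, adjusted p of at most 0.05, no fold minimum), after a test on simulated data. Adjusted p-values without another name come from this fit, and standard errors were obtained from F as the absolute log2 fold change over its square root. Normalized counts were scaled by TMM library size. FPKM was computed from the count, the deposited length and the library total. Exact permutation tests were two-sided. Values after ± are SD (n = 3) for levels and SE for log2 fold changes. A count of 3, taken as the smallest a library can show, was 0.170 to 0.202 CPM, for counting error only.

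GC content is that of the longest GENCODE release 44 transcript, and the identifiers of all 137 members were found in that release. GC and length offsets were natural splines with 5 degrees of freedom fitted to each library. Sequence shared with other transcripts was measured in words of 50 bases, and exon bases that lie over another gene were counted. For named genes that were called, 1 of these shares is given where it exceeded 10%. Promoter windows were taken from RefSeq (GRCh38.p14). Alternatives were DESeq2 1.42.0, limma-voom (limma 3.58.1), other scaling factors, filters and thresholds, a replicate block and the omission of each library. The members and lists were chosen with earlier results of these data known. The named genes were all tested sodium and calcium channel pores, the 2 highest genes of each role group, and the 8 largest increases and decreases among called genes with a mean of at least 50 normalized counts and no overlap, with 3 each way for the partner list and GFI1. Other genes are named to complete their groups, and some genes that the rule takes in are not reported or drawn here, although counts and sums over groups include them. RNA-Seq of other lines and ChIP-Seq were not analysed here.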

Additional observations from a re-analysis of the deposited data

How the results depend on the processing

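The counts of channel genes called higher and lower, 28 and 34 in all, stayed within 1.5 times under other scaling factors, without a filter, with DESeq2 (25 and 30), with limma-voom (29 and 34) and with 0.01 as the threshold on the adjusted p (26 and 30). By DESeq2 22.9% of the 109 channel genes tested were higher and 27.5% lower, beside 23.9% and 23.8% of all genes that it tested. Leaving out each library in turn gave 27 to 29 higher and 30 to 33 lower in all, 15 to 17 and 21 to 22 in the KCN family, 9 to 10 and 5 to 7 in the CACN family, and 3 and 4 in the SCN family. A log2 fold change of at least 1 left 11 higher and 18 lower in all, 9 and 10 KCN genes, 2 CACN genes higher, and 0 SCN genes higher and 2 lower. At least 10 counts in every library left 4 CACN genes lower, since fewer genes were tested. With GC and length offsets 10 KCN genes were higher and 11 CACN genes lower, with or without the replicate block.

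Among genes named by the rule and called with or without the offsets, these turned the sign of 7, with log2 fold changes of -0.289 for CACNA1A, -0.576 for CACNA1H, -0.248 for CACNB1, -0.022 for CACNB3, -0.437 for CACNG7, -0.059 for KCNIP2 and -0.337 for KCNIP3. With the replicate block as well, these were -0.288, -0.576, -0.250, -0.022, -0.436, -0.058 and -0.338. SCN8A and KCNQ3 also changed sign, from -0.049 to 0.107 and from -0.149 to 0.062, with no call in either fit. DESeq2 did not call CACNA1C, CACNG6, KCNAB1, KCNC2, KCNH8, KCNIP2, KCNK12, KCNV1 and SCN9A, which edgeR called. The cause was not tested.

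Replicate numbers are shared between the groups, but same-numbered libraries did not deviate together, with correlations of -0.00617, 0.0134 and 0.0213 beside -0.0502 to 0.0439 for other pairs. The numbers were therefore not taken as pairs. With the replicate block 28 channel genes were higher and 34 lower, and all 51 named genes kept their direction and side of the threshold. Genes with few counts are limited by depth, and the 48 untested members had too few counts for a test.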

Other observations

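Besides the protein-coding members, 30 non-coding genes of the table carry a symbol that begins as the channel genes do, of which 14 had no count and 2 could be tested. KCNQ1OT1, an imprinted RNA read from the strand opposite to KCNQ1, had 511, 483 and 517 normalized counts in WT and 388, 364 and 380 in GFI1-KO. The groups did not overlap (log2 fold change -0.42 ± 0.07, SE, edgeR adjusted p = 7e-06), but the call was lost with GC and length offsets (-0.02, adjusted p = 0.783). KCNQ1 lies over this RNA, and without strand information their reads in the shared stretch cannot be told apart. KCNK15-AS1 was not called, at 13.4 ± 2.00 in WT and 14.5 ± 1.48 in GFI1-KO (0.12 ± 0.36, adjusted p = 0.781).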
